A study of Homo sapiens with 12 samples.

Results

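The genes described here are 37 human genes of the lysosome: prosaposin, 17 soluble enzymes, 6 membrane and lipid export proteins, 3 sorting receptors, the sorted protein progranulin, the transcription factor TFEB, and 8 subunits and accessory proteins of the vacuolar proton pump (V-ATPase). They were chosen by name, out of 20056 protein-coding genes, for their place in this organelle, with earlier results of these data known. The measurements are the sites at which an antibody against 1-methylguanosine (m1G) enriched fragments of polyadenylated RNA from PANC-1, a much-used cell line grown out of a human pancreatic ductal tumour. The 12 libraries form 4 groups of 3, all of experiment 2: m1G-precipitated RNA of TRMT5 KD cells, input RNA of TRMT5 KD cells, m1G-precipitated RNA of WT control cells and input RNA of WT control cells. TRMT5, the methyltransferase that makes m1G beside the anticodon of tRNAs, had been depleted for 4 days by transfected siRNA, a transient knockdown in a single line. The study asked which mRNAs may carry m1G.

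The data are 2 peak lists that cover the series as a whole. Neither list holds a value for a single library, so no spread between replicates can be given, the read depth is unknown and TRMT5 KD cannot be set against WT control. The MetDiff list gives exon-based peaks, each with a ratio and a false discovery rate (FDR), and the MACS2 list gives summits, positions of 1 base with a −log10 q value. The ratio was read as precipitated over input RNA from its place in a layout without a header. All of these values are the authors'. Coordinates are GRCh38, counted from 1. A peak was assigned to a gene when it lay wholly inside the gene's RefSeq span, which includes introns, so an assignment is one of position. Among markers of the line, KRT8, KRT18, KRT19 and VIM had MetDiff peaks, whereas KRT7 and EPCAM had 0, as did all markers examined of leukocytes (5 genes), acinar cells (4 genes) and islet cells (3 genes). TRMT5 itself had 3 MetDiff peaks, with a highest ratio of 17.8, and 0 summits.

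Lysosomes break down proteins, glycans and lipids with acid hydrolases that work at a low pH, which the V-ATPase keeps by pumping protons into the lumen. Most of the soluble enzymes are made in the endoplasmic reticulum, tagged with mannose 6-phosphate in the Golgi and carried onward by mannose 6-phosphate receptors. TFEB drives transcription of many of these genes through a palindromic E-box element in their promoters. Pancreatic cancer cells are known for a high use of lysosomes and autophagy to obtain nutrients.

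Sites of the m1G precipitation lay in the spans of 22 of the 37 genes. A MetDiff peak lay in 20 of them (54.1%, 95% Wilson interval 38.4 to 69.0), where 21.3% of all protein-coding genes had one under the same rule. A MACS2 summit lay in 16 (43.2%, 28.7 to 59.1), where 9.45% of all protein-coding genes had one. Both kinds were present in 14 genes (37.8%), where the share of all protein-coding genes was 8.07%. Those 14 were 70.0% of the genes with a MetDiff peak, where the share over all such protein-coding genes was 37.9%, and 87.5% of the genes with a summit, where it was 85.3%. The intervals cover counting error only, no test of these shares was made, and the background also counts genes that may be silent in PANC-1. The genes were listed with earlier results of these data known, so the shares only describe this list. Together the spans held 50 of the 9585 MetDiff peaks and 40 of the 3705 summits.

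The ratios of these genes were close to those of the whole MetDiff list, and the median of their summits was above that of the whole MACS2 list by a margin that rested largely on PSAP. Their ratio had a median of 4.00 and a range of 1.64 to 17.1, beside a median of 4.50 over all peaks, and 23 of 50 lay above that value. Summits had a median −log10 q of 17.8 and a range of 3.14 to 91.3, beside a median of 13.7 over all summits, and 26 of 40 lay above that value; without the 10 summits of PSAP the median was 14.3. Prosaposin and cathepsin D alone held 16 of the 40 summits. Peaks covered a median of 101 exonic bases, as they did in the whole list. A single exon block held 31 of 50 (62.0%), where the share over all peaks was 66.6%.

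**Figure D1:**
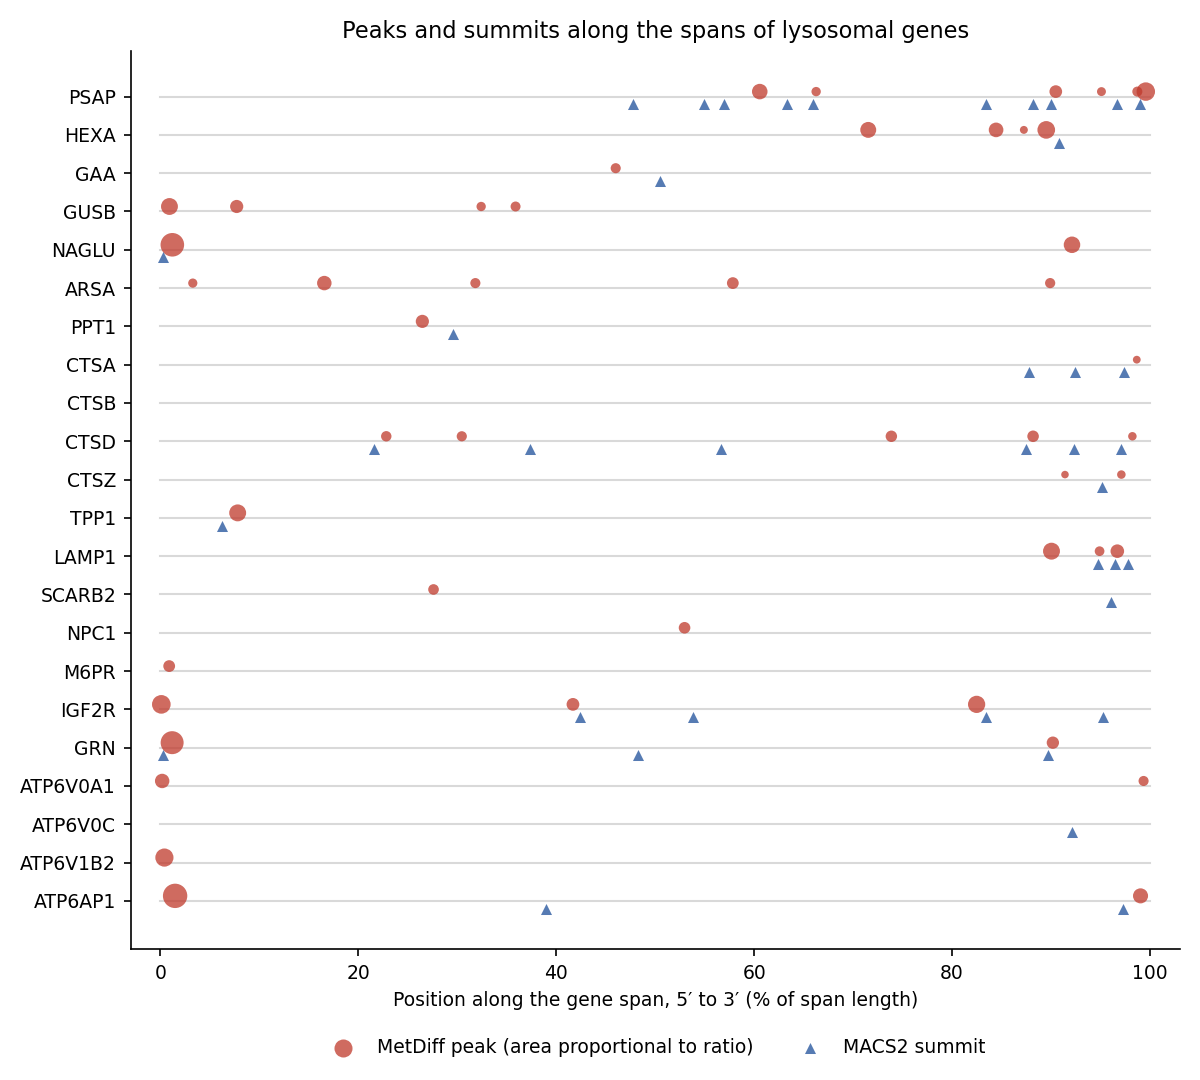
Position of MetDiff peaks (circles, area proportional to the ratio) and MACS2 summits (triangles) along each gene span, as % of the span from its 5′ to its 3′ end, for the 22 lysosomal genes with either. The largest circles, those of ATP6AP1, NAGLU and GRN, lie at the 5′ end, whereas PSAP, HEXA, LAMP1 and CTSZ have all their circles in the 3′ part; 3 peaks on the opposite strand and the summit of CTSB, whose strand was not in the tables, are not drawn.

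A group of 9 genes had a peak at the very start of the gene, here taken as a peak whose 5′-most base lay within 100 bases of the 5′ end of the span. That was 45.0% of the 20 genes with a peak (25.8 to 65.8), where 20.6% of the 4266 protein-coding genes with a peak had one at the start under the same rule. Counted by peaks, 9 of 48 on the gene's own strand lay there (18.8%), where 9.73% of the peaks of sole protein-coding genes, on either strand, did. All 3 V-ATPase genes with a peak were among them, as were both mannose 6-phosphate receptors, GRN and 3 of 10 soluble enzymes with a peak. Outside the 37 genes, 5 further V-ATPase subunits had a peak. Their strongest peak lay 49 bases from the start in ATP6V0E1, but at least 2139 bases away in the others. ATP6AP1, an accessory protein of the proton pump, had the highest ratio among the peaks of the 37 genes, 17.1 (chrX:154428695-154428893, FDR 3.98e-05), beginning 18 bases from the start. NAGLU, which removes N-acetylglucosamine from heparan sulfate, had 16 (chr17:42536291-42536390, FDR 0.00282), and GRN, the secreted progranulin that is carried to lysosomes by sortilin, had 15.2 (chr17:44345296-44345494, FDR 8.51e-05). The GRN peak began 6 bases before the RefSeq start, so it touched the span without lying wholly inside it and is not among the 50.

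The other start peaks had lower ratios. IGF2R, the large mannose 6-phosphate receptor, had a ratio of 10.0, ATP6V1B2, a subunit of the ATP-hydrolysing V1 sector, 9.50, and the glycosidase GUSB 8.21. ATP6V0A1, a subunit of the membrane V0 sector, had 6, the small mannose 6-phosphate receptor M6PR 4.00 and the sulfatase ARSA 2.44. The FDRs did not follow the ratios. They were 1.00e-05 in IGF2R, 9.12e-05 in ATP6V1B2, 2.00e-09 in GUSB, 0.000417 in ATP6V0A1, 0.0174 in M6PR and 1.82e-09 in ARSA. The median of the 9 start peaks was 9.50, beside 3.84 for the 39 peaks elsewhere on the own strand of lysosomal genes. Of the 9, 4 lay above the highest of those 39 (9.82, in PSAP). The 3 peaks on the opposite strand were left out, among them a ratio of 10.2 inside the CTSD span, above the 10.0 of IGF2R. In protein-coding genes outside the list, start peaks also had a higher median than peaks elsewhere (6.15 in 843 peaks, against 4.33 in 7868). Those peaks were counted on either strand. Of the 9 start peaks of lysosomal genes, 6 lay above that 6.15.

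**Figure D2:**
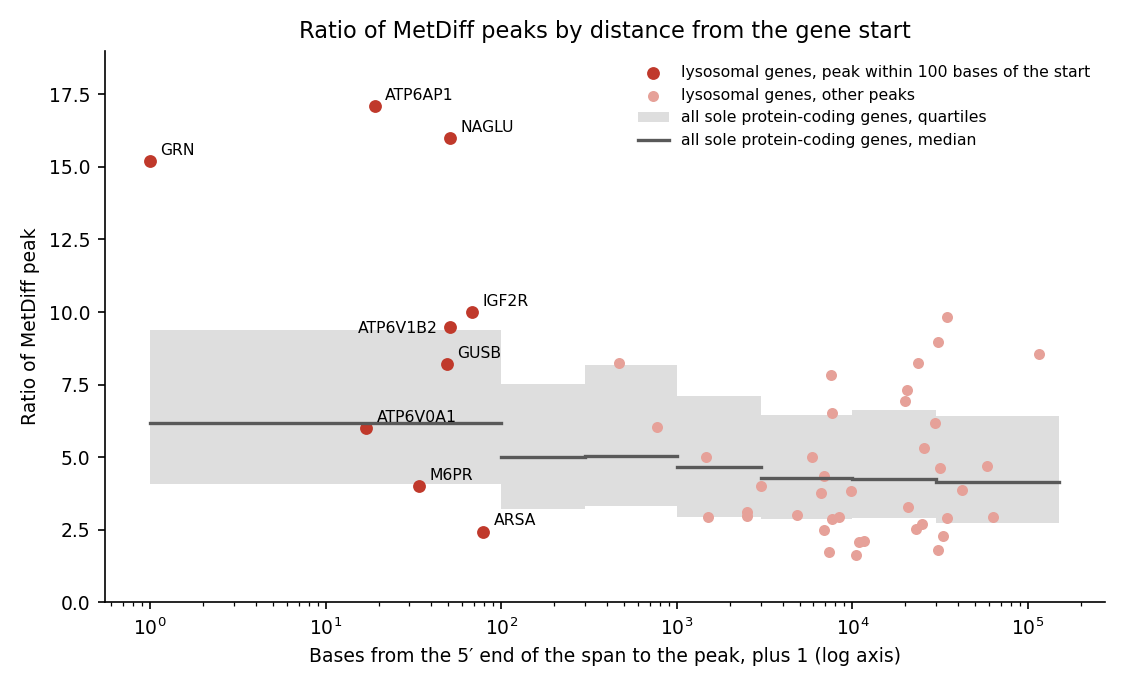
Ratio of each MetDiff peak on the gene's own strand against its distance from the 5′ end of the span (bases plus 1, log axis), for lysosomal genes (red, start peaks dark), over the median and quartiles of peaks in all genes that were the sole protein-coding gene at their peak (grey). ATP6AP1, NAGLU and GRN stand above all other points, and the grey median is highest in the bin nearest the start; the GRN peak, which begins 6 bases before the span, is drawn at 1.

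The sequence at these starts is shown because m1G is a modified guanosine and the 3 highest ratios in the 37 genes were those of start peaks. For the genes whose RefSeq start window (GRCh38.p14) reaches into the start peak, the first 30 bases of the peak follow, 5′ to 3′ in the direction of the gene, with every guanine in capitals; for GRN the 30 bases around its summit are given instead.
ATP6AP1 (chrX:154428695-154428724, plus strand): GatGGcGGccatGGcGacGGctcGaGtGcG
GRN (chr17:44345308-44345337, plus strand): GcccaaGGaccGcGGaGtcGGacGcaGGta
ATP6V0A1 (chr17:42458894-42458923, plus strand): cctGGaGccGcGGaGGGtGcGGGtttGGct
M6PR (chr12:8949583-8949612, minus strand): ctGGcctctGaaactaGctctGGGaccGGG
Guanines made up 14, 12, 15 and 10 of the 30 bases in the order shown. Over the start windows of all protein-coding genes, the first 30 bases after the start had a median of 33.3% guanine, and over the 35 windows of the lysosomal genes a median of 36.7%. The M6PR stretch had 33.3% and the ATP6V0A1 stretch 50.0%. For GRN the first 30 bases of the peak held 11 guanines (36.7%), beside 12 around the summit. The peaks are wider than these stretches, and no base in them is known here to be modified.

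PSAP, the precursor that is cut into the saposins needed by sphingolipid hydrolases, had the most summits of the 37 genes and the strongest one. Its 10 summits on chromosome 10 had −log10 q values of 83.7, 40.7, 46.6, 15.6, 24.8, 47.1, 91.3, 26.8, 16.3 and 22.8, from the 3′ to the 5′ side. At least 10 summits were found in 23 of the 1896 protein-coding genes with a summit (1.21%), and a summit of at least 91.3 in 13 of them (0.686%). The strongest lay at position 71829116 and ranked 26 of 3705. The ratios of its 6 MetDiff peaks did not stand out in the same way. They were 9.82 for the peak that ends 100 bases from the 3′ end of the span (chr10:71816398-71816497), 6.95 for chr10:71828958-71831205, and 2.30 to 4.63 for the others. A highest ratio of at least 9.82 was reached by 23.3% of genes with a peak. All PSAP summits and peak midpoints lay between 47.7% and 99.6% of the length of the span, and none near the 5′ end.

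Among the glycosidases, 4 of 5 had a MetDiff peak inside the span and 3 of 5 a summit. GLB1, the acid beta-galactosidase, had neither. HEXA, the alpha subunit of beta-hexosaminidase, had 4 peaks on chromosome 15 with ratios of 8.97, 1.82, 6.17 and 7.30 and a single summit of 23.7 at position 72344161, which lay 21 bases 5′ of an exon block of the strongest peak. Its peaks came under 2 gene IDs on the minus strand (ENSG00000213614 with 3 peaks and ENSG00000260729 with 1), and the files do not pair the IDs with names. GUSB, beta-glucuronidase, had 4 peaks on chromosome 7 with ratios of 8.21, 5.00, 2.50 and 2.86 from the 5′ side on. NAGLU had a second peak of 7.85 near its 3′ end and a summit of 17.01, which lay at the start, 18 bases from the 5′ end. GAA, the acid alpha-glucosidase that degrades glycogen, had a peak of 2.93 and the weakest of the 40 summits (3.14), 769 bases from that peak.

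The enzymes of lipid and sulfate breakdown had fewer sites. ARSA, which removes sulfate from sulfatides, had 5 peaks on chromosome 22, spread over its whole short span of 5399 bases, with ratios of 2.44, 6.04, 2.95, 4.00 and 3.00 from 5′ to 3′. PPT1, which removes palmitate from proteins, had a peak of 5.00 and a summit of 13.8. SMPD1 (acid sphingomyelinase), ASAH1 (acid ceramidase) and LIPA (lysosomal acid lipase) had neither a peak nor a summit. ARSA and GUSB combined several peaks of low FDR with no summit inside the span. For GUSB, however, a summit lay just outside the span, 49 bases from its start peak. The summit nearest to any ARSA peak was 17743 bases away. The lowest FDR was 1.82e-09 in ARSA, a level reached by 4.06% of all peaks, and 2.00e-09 in GUSB, reached by 4.17%. Of the 794 protein-coding genes with at least 4 MetDiff peaks, 56.0% had a summit.

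Of the 7 proteases, 4 had a MetDiff peak and 5 a summit. CTSD, the aspartic protease cathepsin D, had 6 summits on chromosome 11 with −log10 q of 21.8, 10.3, 56.1, 19.4, 20.7 and 24.7 from the 3′ to the 5′ side. The strongest, at position 1754160, was the only summit above 40 in the 37 genes outside PSAP. Its 7 MetDiff peaks came under 3 gene IDs. The 5 peaks on the CTSD strand had ratios between 2.08 and 3.84, and some of them overlapped each other under different IDs. The other 2, with ratios of 2.65 and 10.2, were on the plus strand, opposite to CTSD, in a stretch where a long non-coding RNA overlaps the gene; the summit of 24.7 lay in that stretch too. The highest ratio inside the CTSD span is therefore not one on its own strand.

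In the remaining proteases no summit reached the strongest one of CTSD, but the TPP1 peak had a higher ratio than the CTSD peaks on its own strand. TPP1, a tripeptidyl peptidase, had a peak of 8.25 and a summit of 22.0, both near its 5′ end. CTSZ had peaks of 2.10 and 1.64, with an FDR of 0.0282 for each, and a summit of 13.7. CTSA, the protective protein that stabilises beta-galactosidase and neuraminidase, had 3 summits of 7.04, 4.65 and 4.40 and a peak of 1.75 at its 3′ end. A peak of 2.08 on the opposite strand covered the same bases, where the neighbouring gene PLTP overlaps CTSA, and the summit of 4.40 lay in that overlap. CTSB had a single summit of 4.69 and 0 MetDiff peaks, and CTSC and CTSL had neither.

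**Figure D3:**
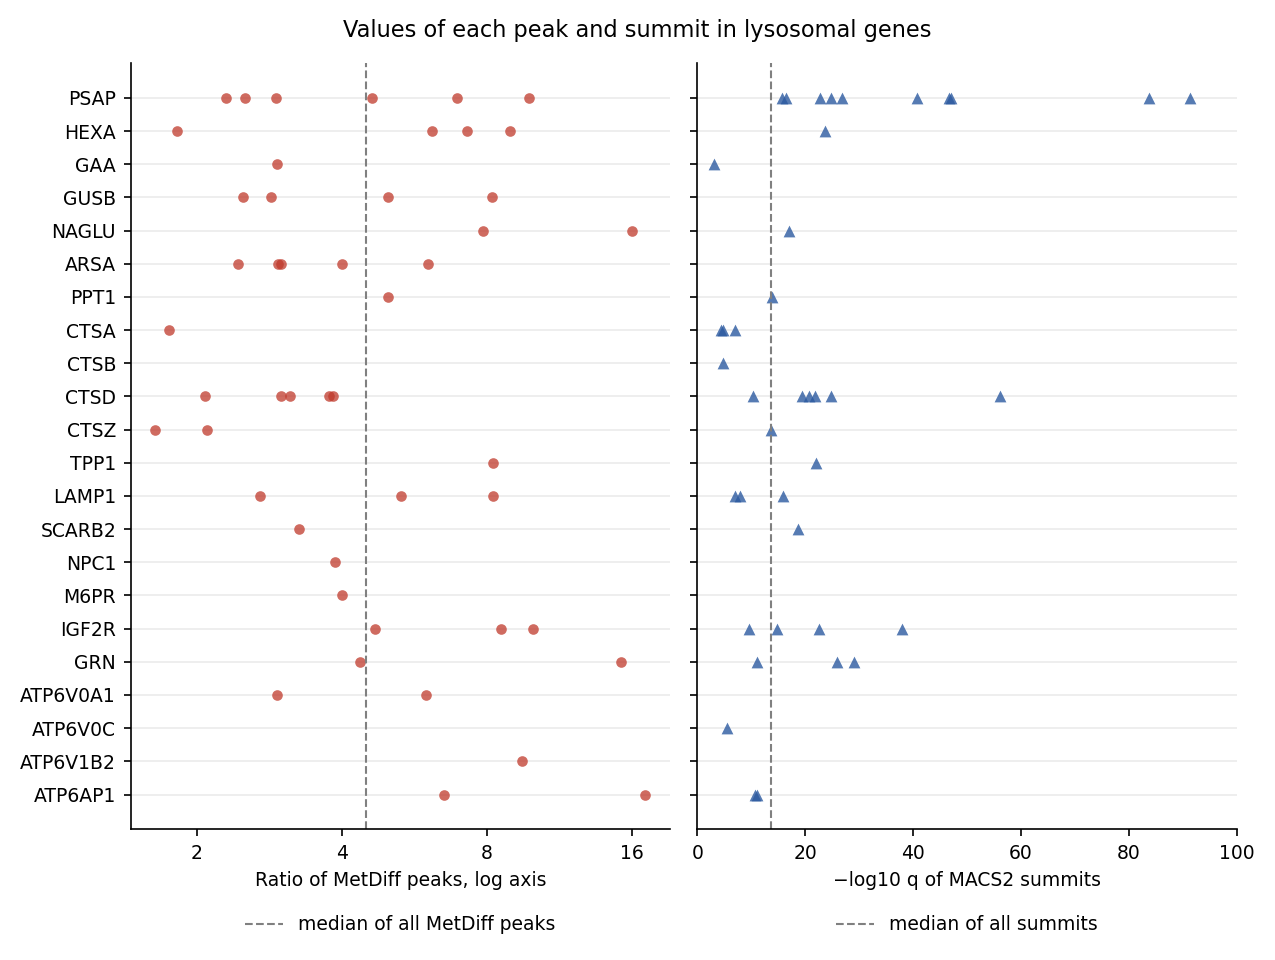
Ratio of every MetDiff peak on the gene's own strand (left, log axis) and −log10 q of every MACS2 summit (right) in the 22 lysosomal genes with either; dashed lines mark the medians over all peaks (4.50) and all summits (13.7). PSAP holds 5 of the 6 summits above 40 while its ratios spread from 2.30 to 9.82. GUSB, ARSA, NPC1, M6PR, ATP6V0A1 and ATP6V1B2 have peaks without a summit inside the span. Summits just outside the spans of GUSB and ATP6AP1, 49 and 34 bases from their start peaks, are not drawn.

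MetDiff peaks lay in 3 of the 6 genes of membrane and lipid export proteins, and summits in 2. LAMP1, an abundant glycoprotein of the lysosomal membrane, had 3 peaks on chromosome 13 with ratios of 8.25, 2.71 and 5.32. Their midpoints all lay in the last 10% of the span. LAMP1 also had summits of 15.8, 7.04 and 7.85. The first and second of these summits lay inside the exon blocks of peaks. Its paralog LAMP2 had neither. SCARB2, the receptor that carries glucocerebrosidase to lysosomes, had a peak of 3.27 and a summit of 18.7 that lay 51766 bases apart. NPC1, which exports cholesterol from the lysosome, had a peak of 3.88 and 0 summits, whereas its soluble partner NPC2 and the calcium channel MCOLN1 had neither.

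Of the sorting receptors, IGF2R had 3 peaks on chromosome 6 with ratios of 10.0, 4.69 and 8.56 from 5′ to 3′, and 4 summits of 22.5, 9.58, 37.9 and 14.7. The strongest summit, at position 160087941, lay 92 bases 5′ of an exon block of the third peak. GRN had a second peak of 4.37 near its 3′ end and summits of 29.1, 10.98 and 25.96; the first lay inside the start peak, 20 bases from the start of the span. GRN and NAGLU were thus the genes of the list in which a summit sat inside the span and within 50 bases of the gene start. In GUSB and ATP6AP1 a summit lay just before the start, outside the span, 49 and 34 bases from the start peak. SORT1, which encodes sortilin, and TFEB had 0 peaks and 0 summits.

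Among the 8 V-ATPase genes, MetDiff peaks lay in 3 and summits in 2, with both in ATP6AP1 alone. ATP6AP1 had summits of 11.1 and 10.7 inside its span, and another summit lay before the gene start, 34 bases from its start peak. The gene also had a second peak of 6.54 that ran to the last base of its span. ATP6V0A1 likewise had a second peak near its 3′ end, with a ratio of 2.93. ATP6V0C, the proteolipid of the membrane ring, had a single summit of 5.48 and 0 MetDiff peaks. ATP6V0D1, ATP6V1A, ATP6V1H and ATP6AP2 had neither. The spans of the 15 genes without any site had a median length of 43202 bases, beside 19916 bases for the 20 genes with a MetDiff peak; the RNA level of these genes was not analysed here.

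Along the genes, 21 of the 50 peaks (42.0%, 29.4 to 55.8) had their midpoint in the last 20% of the span, where 37.2% of the peaks of sole protein-coding genes did. On the gene's own strand the midpoints had a median of 66.3% of the span, beside 65.7% for those other peaks.

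Summits that lay close to a peak, but outside its exon blocks, were mostly on its 5′ side. An exon block of a MetDiff peak held 5 of the 40 summits (12.5%, 5.46 to 26.1), where 17.7% of all summits did, and 23 lay within 150 bases of one (57.5%, against 63.6% of all summits). Of the 18 that were outside a block but within 150 bases of it, 17 lay on its 5′ side in the direction of the peak's strand, at a median signed distance of -48.5 bases over the 18, where negative is 5′. The exception was the PSAP summit of 83.7, 37 bases on the 3′ side. Over all summits of that kind, 89.9% lay on the 5′ side, with 89.5% next to peaks on the plus strand and 90.3% next to peaks on the minus strand, so this placement was general to the lists. The distances are genomic and may cross introns. The farther 17 summits included 5 that lay over 5000 bases from a block, in SCARB2, IGF2R, CTSB and ATP6V0C.

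**Figure D4:**
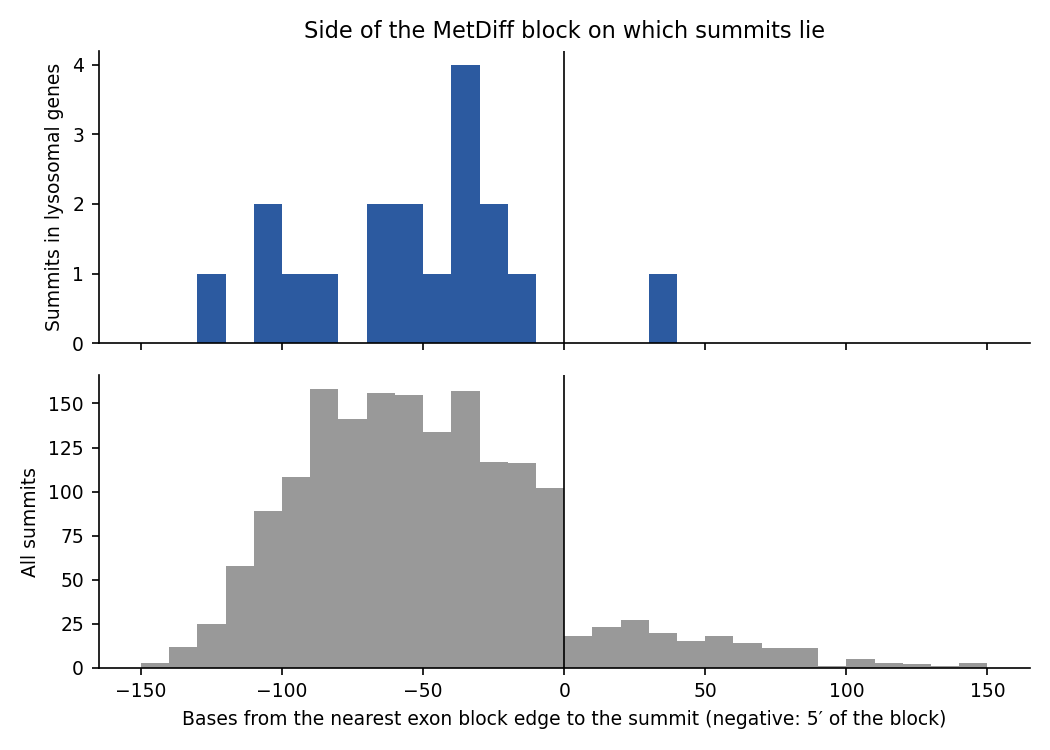
Distance in bases from the edge of the nearest MetDiff exon block to each summit that lay outside a block but within 150 bases of it, in lysosomal genes (top, 18 summits) and in the whole list (bottom, 1703 summits); negative values are 5′ of the block. In lysosomal genes 17 of 18 summits lie below 0, and in the whole list 89.9% do.

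Other genes of the lysosome were examined in a list of 77 further enzymes, membrane proteins, regulators and V-ATPase subunits. This list, too, was chosen with earlier results of these data known. A MetDiff peak lay in 35 of them (45.5%) and a summit in 15 (19.5%), where the shares over all protein-coding genes were 21.3% and 9.45%. At least one of the kinds lay in 37. Among the highest ratios were those of TCIRG1 (29.2), the a3 subunit of the V-ATPase, ATP6V0E2 (21.2), GALC (15.7), the galactosylceramidase, and CTNS (11.4), the cystine exporter. TCIRG1 and ATP6V0E2 thus both exceeded the 17.1 of ATP6AP1. The strongest peak of each lay over 5000 bases from the gene start. The strongest summits were those of LAPTM4B (63.3), ATP6V1C2 (54.4), OSTM1 (40.4), the tetraspanin CD63 (37.9) and the sulfatase GALNS (37.5). The sites in ATP6V1C2 lay where another protein-coding gene overlaps its span.

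The promoters of these genes were searched for CACGTG, the core of the E-box bound by TFEB, which reads the same on both strands. The RefSeq windows ran from 250 bases before to 50 bases after the gene start and were found for 27 of the 37 genes; PSAP, HEXA, NAGLU, ARSA, ASAH1, CTSB, LAMP2, ATP6V1A, ATP6V1B2 and ATP6V1H had none. The motif occurred in 8 of the 27 (29.6%), where 10.9% of 15843 protein-coding genes held it. These were GAA, CTSA, CTSD, LAMP1, MCOLN1, M6PR, IGF2R and ATP6V0D1. It was present in 6 of 16 genes with a peak or summit and in 2 of 11 with neither. The stretch around the motif nearest to the start, upstream of it, follows for genes that had peaks, with the motif in capitals. M6PR is left out because its motif lay in the window of a second start, downstream of its first.
GAA (chr17:80101533-80101572, plus strand): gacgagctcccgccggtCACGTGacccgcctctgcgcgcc
CTSA (chr20:45891293-45891332, plus strand): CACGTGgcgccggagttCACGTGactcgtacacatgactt
CTSD (chr11:1763952-1763991, minus strand): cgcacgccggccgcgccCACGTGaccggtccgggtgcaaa
LAMP1 (chr13:113297194-113297233, plus strand): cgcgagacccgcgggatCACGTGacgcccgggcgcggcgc
IGF2R (chr6:159969037-159969076, plus strand): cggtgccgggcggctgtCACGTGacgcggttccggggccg
Of these 5, IGF2R was the gene with a start peak, which began 67 bases after the start. A match is a description of the letters in these windows and says nothing of binding in these cells.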

How the data were processed

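PANC-1 libraries of m1G-precipitated and input RNA were processed by the authors. The submitters' processing notes name STAR 2.7.1 and MACS2 2.2.5 among other tools, with GRCh38 as the build. Settings, and which libraries entered the calls, were not given in the sources used here. Both deposited lists lack headers, so units were read from layout and values. The deposited MACS2 value was taken as −log10 q, its lowest being 1.35. The deposited MetDiff columns were taken as a p-value, a log10 FDR and a ratio.

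Here, Python 3.11.15 with pandas 2.3.3 joined peaks to RefSeq gene spans (GRCh38.p14). The join was tested on simulated peaks and found 200 of 200 in their gene. Distances follow the peak's strand. Gene strand came from the RefSeq start windows, otherwise from the peaks. Shares carry 95% Wilson intervals. No test was made, because no value per library exists. The members and lists were chosen with earlier results of these data known. All 37 genes are named. Of the other lysosomal genes, the 5 with the highest ratio and the 5 with the highest −log10 q are named, except for an item that is not reported here. Peaks at gene starts and the side of summits were examined after seeing the data. Alternatives concerned gene naming, thresholds, distances and leaving out PSAP.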

Additional observations from a re-analysis of the deposited data

How the results depend on the processing

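Of 34 alternatives, 29 kept counts within 1.5 times and medians within the 95% binomial interval of the reported value; 5 did not. Members with a MetDiff peak numbered 13 at a ratio of at least 5, against 20 reported. The share of all protein-coding genes at that ratio is not given, so the fall cannot be set against the whole list. The 5 summits inside an exon block became 14 within 50 bases of one, 23 within 150 bases, and 14 between the first and last base of a peak. The median ratio of 4.00 became 7.13 when only the highest peak of each gene was counted. Leaving out PSAP, chosen after seeing the data, gave a median −log10 q of 14.3 (17.8 reported), and 13 of 13 nearby summits on the 5′ side. Start peaks wholly inside the span had a median ratio of 8.86, against 9.50 with GRN. No paired analysis was possible because the lists hold no value per library. Depth is unknown.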
